A study of Arabidopsis thaliana with 6 samples.

Results

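Regions bound by SWINGER (SWN) that lie over non-coding genes and over no protein-coding or microRNA gene were described across seedlings with and without VAL1 and VAL2. On the 5 nuclear chromosomes, peaks from the 4 lists were joined where they shared at least 1 bp, which gave 13169 union regions. Of these, 721 (5.47%) overlapped a gene of another type than protein-coding or microRNA and no gene of those types. A further 9524 regions lay over protein-coding or microRNA genes and 2924 over no gene. Among the 9524, 403 also touched a non-coding gene and were therefore not counted here. The choice rested on position alone and on no peak value.

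The study used Arabidopsis thaliana seedlings 14 days old. The genotypes were pSWN:SWN-GFP swn, called SWN-GFP below, and pSWN:SWN-GFP swn val1 val2, called SWN-GFP val1 val2 and, for short, val1 val2. All plants thus carried SWN fused to GFP, driven by the SWN promoter, in a swn mutant, and the second genotype also lacked functional VAL1 and VAL2. Chromatin was precipitated with an antibody against GFP and sequenced, with 2 libraries per genotype, and 2 input libraries had no file of their own and are not analysed here. Whole seedlings were used, so that the tissues and cells behind a peak are not separated.

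SWN is a methyltransferase subunit of Polycomb repressive complex 2, which places the repressive mark on lysine 27 of histone H3. VAL1 and VAL2 are B3-domain proteins that bind DNA and repress seed genes in seedlings. The complex is best known for covering developmental protein-coding genes. Non-coding genes include long non-coding RNAs (lncRNAs), precursors of small RNAs, short RNAs of splicing, RNA modification and translation, and pseudogenes, which are damaged copies of genes or relics of transposons and may still be transcribed.

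In whole, 8189 and 8666 peaks were listed for SWN-GFP and 9177 and 9618 for val1 val2, and the depth behind them is unknown. Peak callers report more peaks at higher depth. A missing peak thus shows a signal below the caller's cutoff in that library, which is not the absence of SWN. Depth, genotype and any batch of a genotype cannot be told apart.

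More of these regions carried a peak without VAL1 and VAL2. Peaks lay in 369 and 388 of the 721 regions in the SWN-GFP replicates 1 and 2, and in 450 and 502 in the val1 val2 replicates 1 and 2. The genotypes did not overlap. The means were 378.5 ± 13.4 and 476 ± 36.8 regions (SD, n = 2 each; two-sided exact permutation p = 0.333, the smallest possible with these libraries). The number of union regions of any kind with a peak stood in the same order, with a ratio of 1.14 against 1.26 for regions over non-coding genes. As a share of all regions of a library, those over non-coding genes made up 5.21% and 5.14% in SWN-GFP and 5.60% and 5.83% in val1 val2 (exact permutation p = 0.333). Regions over no gene made up 15.8 ± 0.48% and 17.6 ± 0.64% (SD, n = 2 each), so regions over non-coding genes were not the only class with a larger share. With peaks restricted to a fold enrichment of 4 or more, the excess was absent, with a mean of 107.5 regions over non-coding genes in SWN-GFP and 104.5 in val1 val2. Over all union regions, peaks with such a fold fell in number, from 2351 ± 28.3 in SWN-GFP to 2095 ± 91.9 in val1 val2, a ratio of 0.89. Over non-coding genes such peaks numbered 112 ± 2.8 and 107.5 ± 7.8, a ratio of 0.96 (SD, n = 2 each).

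The covered length, the bp of these regions under peaks, was 240.3 and 256.2 kb in the SWN-GFP libraries. It was 295.7 and 325.0 kb in the val1 val2 libraries (exact permutation p = 0.333). The mean covered length per occupied region was 656 ± 6.5 bp in SWN-GFP and 652 ± 6.9 bp in val1 val2 (SD, n = 2 each), which differed by less than the spread between replicates. Over all union regions the mean covered length per occupied region was 780 ± 0.73 bp in SWN-GFP and 739 ± 1.3 bp in val1 val2 (SD, n = 2 each).

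Peaks in these regions were of middling strength within their lists. Each peak was ranked by the authors' fold enrichment, the pileup at the summit over the local background, as a percentile within its own list. The median percentile was 48.2 and 45.8 in SWN-GFP and 47.3 and 47.0 in val1 val2, where the median over a whole list is near 50 by construction, and the genotypes overlapped (exact permutation p = 1). It was 54.5 ± 0.31 and 54.1 ± 0.42 for peaks over protein-coding or microRNA genes and 30.9 ± 2.0 and 34.7 ± 1.1 for peaks over no gene (SD, n = 2 each). Peaks over non-coding genes stood between those sets in all 4 lists. Their median width was 444 and 461 bp in SWN-GFP and 423 and 441 bp in val1 val2, without overlap (exact permutation p = 0.333). All union peaks stood in the same order, at 482 and 485 bp, then 452 and 454 bp. For peaks over non-coding genes the sign of the difference of means turned at a fold of 4 or more, to 165.5 bp. It also turned with lists of equal length, to 18.25 bp, but there the genotypes overlapped (exact permutation p = 0.667).

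The summit usually lay inside a non-coding gene, and the regions had been chosen for their overlap with such genes. This held for 70.9% and 69.8% of the member peaks in SWN-GFP and for 71.9% and 72.1% in val1 val2. The median region was covered by non-coding genes over 74.9% of its length. Whether summits lay in these genes more often than such cover alone would give was not tested. Of the 721 regions, 197 lay wholly under such genes and 508 were covered by them over at least 50% of their length. The regions were 200 to 5253 bp wide, with a median of 505 bp against 510 bp for all union regions.

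LncRNA genes lay under the largest number of regions, followed by pseudogenes. A region over genes of several types, of which there were 48, was counted for each type. LncRNA genes lay under 323 regions (44.8%, exact Clopper-Pearson 95% interval 41.1% to 48.5%, counting error only). Transcribed pseudogenes lay under 190 (26.4%), other pseudogenes under 104 (14.4%), genes of the table's miscellaneous RNA type under 99 (13.7%) and those of its general ncRNA type, which holds small RNA precursors, under 38 (5.27%). Genes of snoRNAs, which guide RNA modification, lay under 8 regions, tRNA genes under 4 and genes of snRNAs, the RNAs of the spliceosome, under 3. No region of this kind lay over a gene annotated as rRNA or antisense RNA. Together the 721 regions touched 783 of the 10129 non-coding genes of the gene table.

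**Figure D1:**
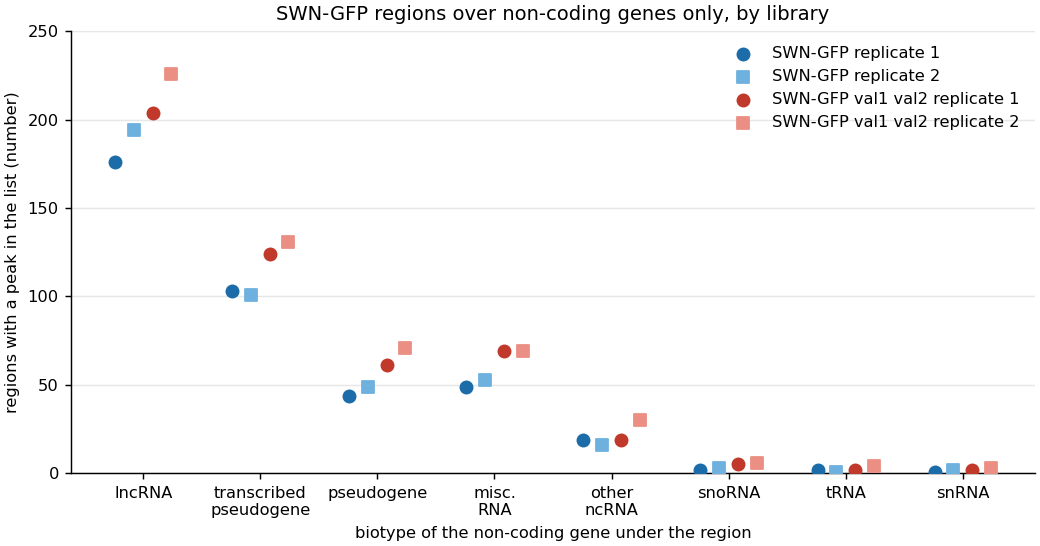
Number of regions over non-coding genes only that had a peak in each list (y axis), by biotype of the gene under the region (x axis); each point is 1 library, with circles for replicate 1 and squares for replicate 2. LncRNA regions numbered 176 and 194 in SWN-GFP and 204 and 226 in val1 val2, and transcribed pseudogene regions 103 and 101, then 124 and 131.

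By type, the order of the genotypes recurred in the frequent types and was not seen in every type. Regions over transcribed pseudogenes numbered 103 and 101 in SWN-GFP and 124 and 131 in val1 val2. Regions over other pseudogenes numbered 44 and 49, then 61 and 71, and those over miscellaneous RNA genes 49 and 53, then 69 in each. Each of these types had more regions in both val1 val2 lists. For the general ncRNA type the ranges met, with 19 and 16 regions in SWN-GFP and 19 and 30 in val1 val2.

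Non-coding gene types differed widely in how often they carried a peak when all union regions were counted, those over protein-coding genes included. A peak of any list lay in 660 of 3480 lncRNA genes (19.0%), 201 of 926 transcribed pseudogenes (21.7%), 118 of 508 miscellaneous RNA genes (23.2%) and 47 of 221 general ncRNA genes (21.3%). Protein-coding genes stood at 29.0%. Of 3917 other pseudogenes, 104 had a peak (2.66%), of 625 tRNA genes 20 (3.20%) and of 287 snoRNA genes 15 (5.23%).

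Gene length and surroundings differed between the types, and their part in these shares was not tested. The median span was 73 bp for tRNA genes, 92 bp for snoRNA genes, 343 bp for lncRNA genes and 2078 bp for protein-coding genes. The pseudogenes that are not marked as transcribed were as long as protein-coding genes, with a median span of 2043 bp. They lay in gene-poor surroundings: 66.1% had 10 or fewer protein-coding genes within 50000 bp on either side, against 23.4% of transcribed pseudogenes, 5.03% of lncRNA genes and 2.66% of protein-coding genes.

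**Figure D2:**
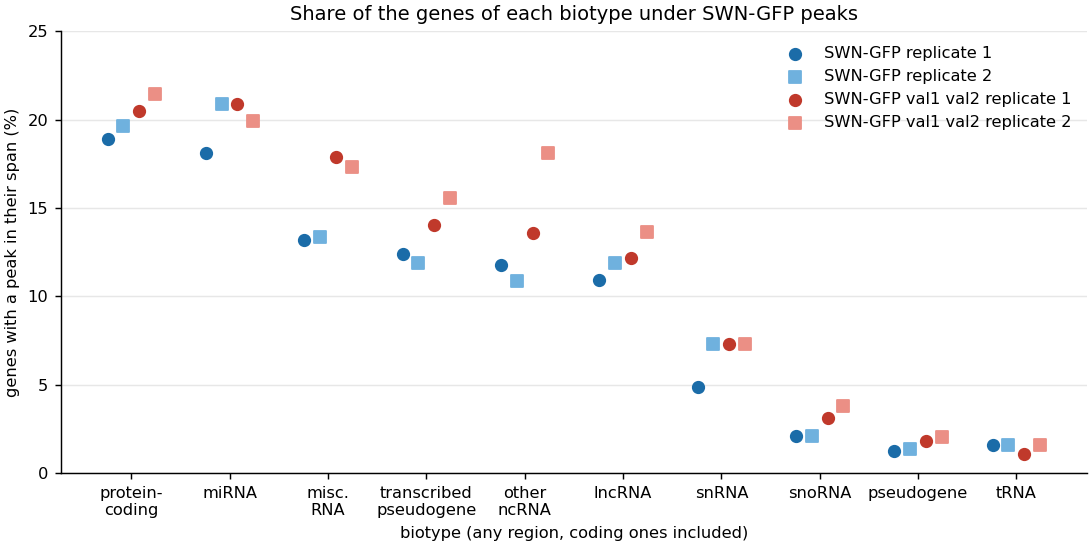
Percent of the genes of each biotype with a peak anywhere in their span (y axis), by biotype (x axis), for each of the 4 libraries; genes under any union region were counted. Pseudogenes not marked as transcribed lay between 1.25% and 2.07% and transcribed pseudogenes between 11.9% and 15.6% in the 4 lists.

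A region was called kept when all 4 lists had a peak in it, lost when a peak was in both lists of SWN-GFP and in no val1 val2 list, gained in the reverse case and mixed otherwise. Regions over non-coding genes fell into these classes nearly as union regions in general did. There were 212 kept regions (29.4%, against 31% of all union regions), 57 lost ones (7.91%, against 8.91%), 106 gained ones (14.7%, against 12.3%) and 346 mixed ones (48.0%, against 47.9%). With all lists brought to the length of the shortest, 61 were lost (9.27%, against 10.6%) and 90 gained (13.7%, against 10.7%). With peaks restricted to a fold of 4 or more the order turned, with 20 lost (12.3%, against 17.0%) and 16 gained (9.88%, against 11.0%). Leaving out a library relaxes the call and moved the counts: the lost regions numbered 109 or 98 when SWN-GFP replicate 1 or 2 was left out (15.5% or 14.0%, against 18.7% or 17.1% of all union regions). The gained regions numbered 213 or 178 when val1 val2 replicate 1 or 2 was left out (31.7% or 27.6%, against 27.3% or 25.3%).

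Among the mixed regions, 237 had a peak in a single list (32.9% of the 721, against 34.4% of all union regions). These fell on SWN-GFP replicates 1 and 2 in 33 and 46 cases and on val1 val2 replicates 1 and 2 in 63 and 95 cases. Wide regions were mostly kept: of the 197 regions of at least 800 bp, 149 were kept (75.6%, against 77.6% of all union regions as wide). Of the 273 regions under 400 bp, 2 were kept (0.73%, against 0.72% of all union regions under 400 bp).

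**Figure D3:**
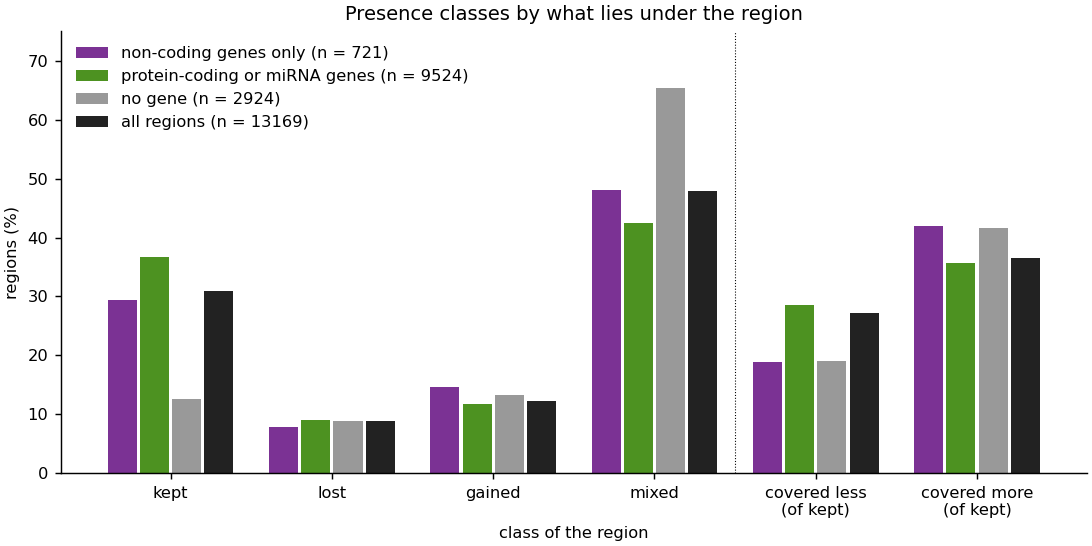
Percent of regions in each presence class (y axis) for regions over non-coding genes only, over protein-coding or microRNA genes, over no gene, and for all union regions; right of the dotted line, percent of the kept regions covered less or more in both val1 val2 lists. Regions over non-coding genes were kept in 29.4%, between 36.7% for coding regions and 12.6% for regions over no gene.

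Replicates shared more of these regions than genotypes did. On average 78.3% of the member regions of a list recurred in the other replicate (73.1% to 81.6%) and 61.5% recurred across genotypes (52.6% to 71.5%). Union regions in general stood near these values, with 78.5% and 62.3%. For member regions at or above the 75th percentile of fold in a list, the shares were 100% and 91.2% (range 87.6% to 94.9%). Over all union regions the shares for such strong regions were near the same values, with 100% and 91.7%.

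The 212 kept regions were more often covered over a greater length in val1 val2 than over a smaller one. In 89 of them (42.0%) both val1 val2 lists covered more bp than either SWN-GFP list, against 36.6% of all kept union regions. In 40 (18.9%) both covered less, against 27.1%, and in 83 the genotypes overlapped. Kept regions over no gene stood close to these values, with 41.7% covered more and 19.1% covered less, and kept regions over coding genes at 35.7% and 28.5%.

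**Figure D4:**
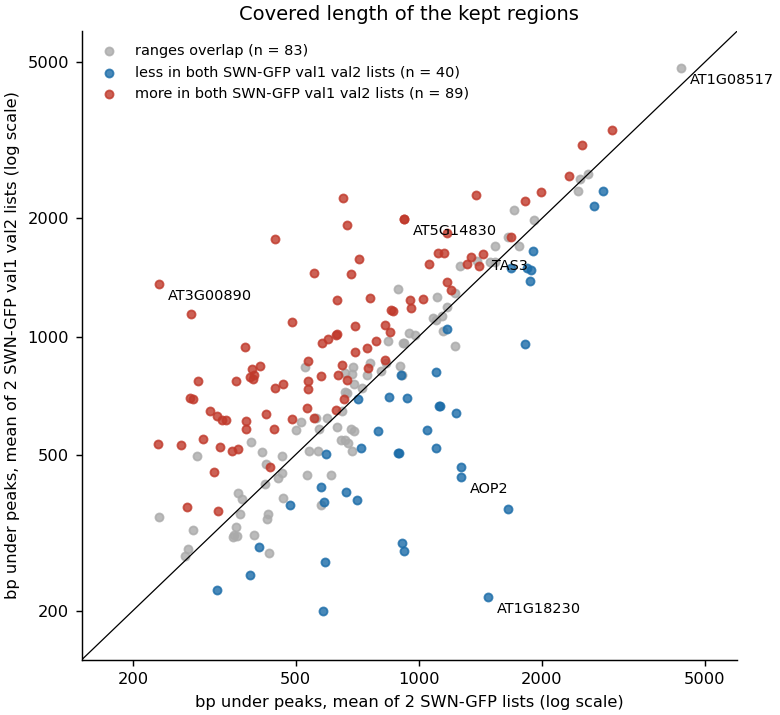
Covered length of each of the 212 kept regions over non-coding genes, as the mean of the 2 SWN-GFP lists (x axis, bp, log scale) against the mean of the 2 val1 val2 lists (y axis, bp, log scale); the line marks equal lengths. AT3G00890 lies far above the line, with means of 231.5 and 1364.5 bp. The region labelled AT1G18230, which also lies over AT1G05397, is far below it, with 1473.5 and 217 bp.

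Among small RNA precursors, TAS3 carried a strong peak in every library. TAS3 (AT3G17185) encodes the precursor of the trans-acting siRNAs that target auxin response factor genes. Its region at chromosome 3, 5861079 to 5862847, was covered over 1486 and 1382 bp in the SWN-GFP libraries and over 1545 and 1709 bp in the val1 val2 libraries. The genotypes did not overlap, and the means were 1434 ± 73.5 bp and 1627 ± 116 bp (SD, n = 2 each). The whole annotated gene lay under the peak in all 4 lists, and the summit lay within it in each. Its percentiles of fold were 93.2 and 94.2 in SWN-GFP and 90.7 and 95.3 in val1 val2, so the ranks of the genotypes overlapped.

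TAS4 (AT3G25795), the precursor of trans-acting siRNAs that target MYB genes of anthocyanin synthesis, lay at the edge of a lost region. The region at chromosome 3, 9418639 to 9420269, was covered over 952 and 1561 bp in SWN-GFP and not at all in val1 val2. Its percentiles in the SWN-GFP lists were 94.9 and 89.2, with folds of 8.31 and 6.01. Only 4.11% of it lay under the TAS4 gene, which a peak of SWN-GFP replicate 1 touched over 67 bp, and no summit lay in the gene. The region is thus lost by its rule, while the gene itself had a peak in SWN-GFP replicate 1 alone.

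The other trans-acting siRNA genes, TAS1A, TAS1B, TAS1C, TAS2, TAS3B and TAS3C, had no peak in any list. Of the 8 genes of this kind listed, TAS3 and TAS4 were therefore the members. Of 7 regulatory RNAs listed beside them, MARS alone lay under a region of this set. ASCO, DRIR, ELENA1 and APOLO had no peak, and IPS1 and AT4, which buffer a phosphate-starvation microRNA, are typed as protein-coding in the gene table and were not members.

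MARS (AT5G00580) is a lncRNA gene within the marneral metabolic gene cluster. Its region at chromosome 5, 17044988 to 17046048, lies between CYP71A16 and MRN1, the marneral synthase gene, both of which had a peak in all 4 lists. It was covered over 618 and 761 bp in SWN-GFP and over 995 and 673 bp in val1 val2, and the genotypes overlapped. Its percentiles were 62.7 and 75.7, then 74.0 and 79.8.

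The strongest kept regions lay near or above the 95th percentile in every list, and the protein-coding genes beside them ranged from kept on both sides to unoccupied on both. The first by rank, at chromosome 1, 23065059 to 23070311, touched the lncRNA gene AT1G08517. It had folds of 23.9 and 23.8 in SWN-GFP and 27.2 and 20.5 in val1 val2, and was covered over 4754, 4004, 4951 and 4740 bp. The protein-coding gene before it is STM, a homeobox gene that maintains the shoot meristem and was itself kept. The lncRNA gene made up 5.86% of this region and held none of the summits.

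The second, at chromosome 3, 6386938 to 6390580, covered AT3G03715, AT3G00360 and AT3G00370. It lies beside BRC1, which restrains the outgrowth of axillary buds and was kept. Its folds were 19.0 and 17.0 in SWN-GFP and 20.3 and 19.2 in val1 val2. Non-coding genes made up 88.9% of it, and the summit lay in the lncRNA gene AT3G03715 in all 4 lists. The covered length was 2907 and 3040 bp, then 3439 and 3299 bp, more in both val1 val2 lists.

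AT1G63040, a transcribed pseudogene beside the kept gene ddf2, lay wholly under the summit-bearing peak of its region in all 4 lists over 747 bp. That region had folds of 15.8 and 14.5, then 14.5 and 14.0. AT1G09235, of the miscellaneous RNA type, had folds of 14.7 and 15.1, then 15.0 and 14.8, and was covered over its 880 bp in every list. Neither protein-coding gene that flanks AT1G09235 had a peak in any list, nor did those that flank AT4G05710, a lncRNA gene with folds of 12.6 and 11.9, then 9.50 and 10.4. AT4G13495, whose region also touched AT4G02925, AT1G07783 and AT3G08455 completed the 8 strongest, with lowest percentiles of 98.5, 96.2 and 95.3. The summit of each lay in the named gene in all 4 lists.

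**Figure D5:**
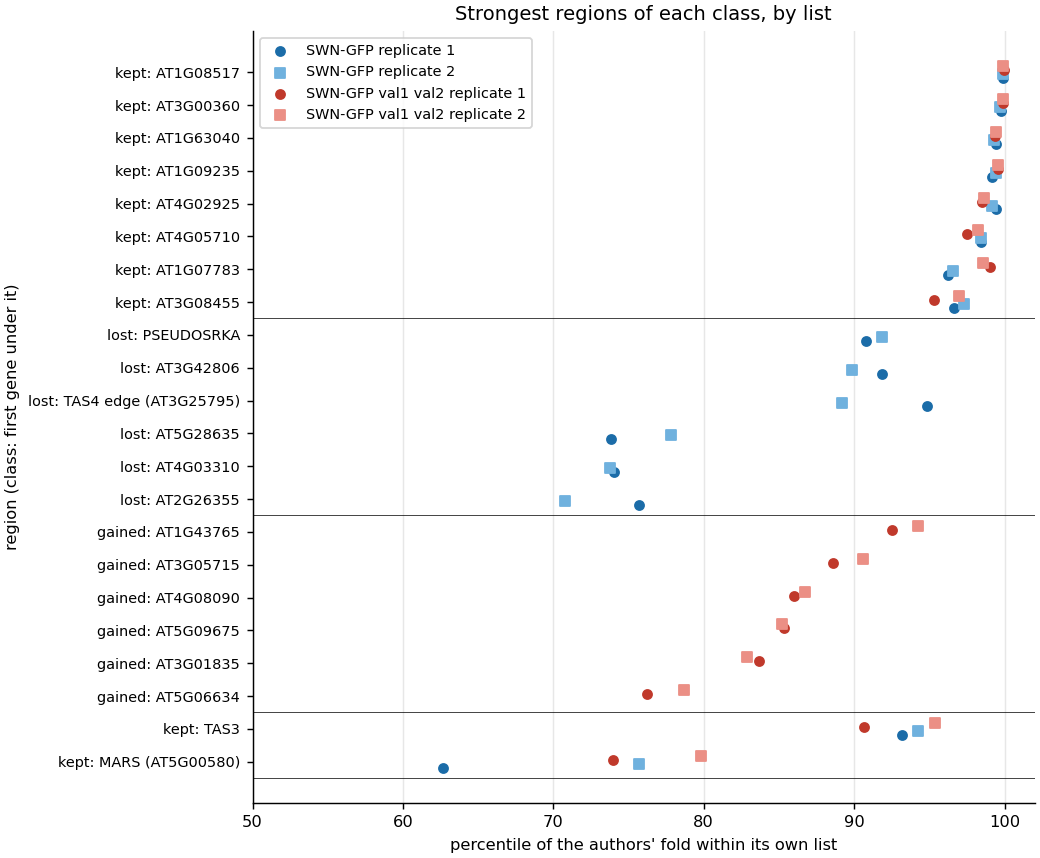
Percentile of the authors' fold within its own list (x axis) for the 8 strongest kept, 6 strongest lost and 6 strongest gained regions and for TAS3 and MARS (y axis, named by the first gene under the region); each point is 1 list, and a missing point means no peak there. The 8 strongest kept regions lie at 95.3 or above in all 4 lists, and the lost and gained ones between 70.8 and 94.9.

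Of the 6 strongest lost regions, ranked by the lower of their SWN-GFP percentiles, the first and several others lay over pseudogenes. PSEUDOSRKA (AT4G21370) is the pseudogene of the S-locus receptor kinase, which in self-incompatible relatives of Arabidopsis thaliana recognises own pollen. Its region at chromosome 4, 11386038 to 11387562, was covered over 1329 and 1453 bp in SWN-GFP, with folds of 6.68 and 6.77 and percentiles of 90.8 and 91.9. No peak lay there in val1 val2. The summit lay in the pseudogene in both SWN-GFP lists.

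AT3G42806, a pseudogene on chromosome 3 whose region ran from 14916935 to 14917611, had folds of 7.03 and 6.15 in SWN-GFP and no peak in val1 val2. It has 11 protein-coding genes within 50000 bp on either side, against a median of 25 for the 721 regions. AT5G28635, a pseudogene beside AN3, a co-activator of leaf cell proliferation, had folds of 4.22 and 4.38 in its strongest lost region and a second lost region next to it. AT4G03310, another pseudogene, had 4.24 and 4.05, and AT2G26355, a lncRNA gene that alone made up its region, 4.35 and 3.85.

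GA2OX5 (AT3G17203), a pseudogene of the gibberellin 2-oxidase family, whose enzymes inactivate gibberellins, carried 2 lost regions. The stronger one, at chromosome 3, 5871791 to 5872820, was covered over 868 and 985 bp in SWN-GFP with percentiles of 69.7 and 78.4. The weaker one began at 5870917, with percentiles of 17.7 and 50.3. TAS3, which was kept, lies close by on the same chromosome, and the protein-coding gene AT3G17190 between them had no peak in any list.

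The strongest gained regions lay over RNA genes without a common name and over pseudogenes. AT1G43765, of the general ncRNA type, had a region at chromosome 1, 16537339 to 16538042, with folds of 6.44 and 6.83 in val1 val2, percentiles of 92.5 and 94.2 and no peak in SWN-GFP. The region was covered over 591 and 666 bp. Its summit lay in the gene in both lists, and neither flanking protein-coding gene had a peak in any list.

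AT3G05715, a snoRNA gene, had folds of 5.44 and 5.66 in val1 val2, but made up 16.9% of its region. The pseudogene AT4G08090, with folds of 5.01 and 4.95, lies in a gene-poor stretch, with 1 protein-coding gene within 50000 bp on either side. AT5G09675, a lncRNA gene, had 4.91 and 4.74. A region that AT3G00220, AT3G01835 and AT3G01845 filled together had 4.70 and 4.41, and AT5G06634, a transcribed pseudogene, had 3.98 and 3.97. None of these regions held a peak in either SWN-GFP list.

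The most reduced kept regions were taken as the 3 with the lowest ratio of covered length, so their short cover in val1 val2 follows from this choice. Their percentiles of fold ranged from 15.3 to 49.8 in val1 val2 and from 38.3 to 87.7 in SWN-GFP. The region over the lncRNA gene AT1G05397 and the transcribed pseudogene AT1G18230, at chromosome 1, 6271499 to 6273159, was covered over 1661 and 1286 bp in SWN-GFP and over 212 and 222 bp in val1 val2. The pseudogene, covered over 494 and 491 bp in SWN-GFP, was no longer under a peak. The nearest protein-coding gene, PUP9, of the purine permease family, was lost. The region over AT2G09130 and AT2G09135 was covered over 1510 and 1803 bp, then 317 and 410 bp, and that over AT5G00345 over 915 and 922 bp, then 265 and 304 bp.

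The most extended kept regions were taken as the 3 with the highest ratio of covered length, so their longer cover in val1 val2 follows from this choice. AT3G00890, which filled its region at chromosome 3, 19193014 to 19194599, was covered over 249 and 214 bp in SWN-GFP and over 1187 and 1542 bp in val1 val2, a ratio of means of 5.89. Its percentiles were 31.0 and 18.8 in SWN-GFP and 71.4 and 79.4 in val1 val2. The region over AT3G05235 was covered over 305 and 251 bp, then 842 and 1437 bp, but that lncRNA gene lay under a peak in val1 val2 replicate 2 alone, over 317 bp, and held none of the summits. The region over AT1G07843, beside the kept NAC transcription factor gene NAC019, was covered over 517 and 375 bp, then 1871 and 1678 bp, although AT1G07843 held none of the summits.

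Ranked by the highest percentile in any list, the strongest region over a pseudogene not marked as transcribed was also an extended one. It lay over AT5G14830 and the start or end of AT5G14840 at chromosome 5, 4796659 to 4798664. Its folds were 3.79 and 3.85 in SWN-GFP, at percentiles of 67.5 and 70.6, and 12.7 and 12.3 in val1 val2, at percentiles of 99.0 in both lists. It was covered over 865 and 971 bp, then 1995 and 2003 bp. Every summit lay in AT5G14830. The rank of this region rested on the val1 val2 lists. In SWN-GFP the lost region over the pseudogene AT3G42806 stood higher, at percentiles of 91.8 and 89.9.

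Of the 721 regions, 26 lay over a gene with a symbol of its own, of which 9 were kept, 5 lost, 5 gained and 7 mixed. Over all union regions these classes made up 31.0%, 8.91%, 12.3% and 47.9%. AOP2, which in the Columbia accession is a defective copy of a glucosinolate gene, carried 2 kept regions. The larger, at chromosome 4, 1351693 to 1353213, was covered over 1330 and 1212 bp in SWN-GFP and over 259 and 617 bp in val1 val2. The smaller was covered over 499 and 567 bp, then 604 and 281 bp, and the genotypes overlapped. The neighbouring AOP3 was kept and AOP1 had no peak.

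The region over EXPA19, of the expansin family of wall-loosening proteins, was covered less, over 874 and 914 bp, then 376 and 632 bp. That over CYP71B18, of the cytochrome P450 family, was covered more, over 350 and 366 bp, then 873 and 668 bp. UBC26, of the ubiquitin-conjugating enzyme family, was kept at percentiles of 89.2 and 88.5, then 94.4 and 93.5, with overlapping covered lengths. GUT15, a gene with an unstable non-coding transcript, was lost, but its peaks were weak, with percentiles of 50.9 and 11.2 and covered lengths of 210 and 218 bp.

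The Sadhu elements, which are non-coding retrotransposons, did not share a class. SADHU5-1 was kept at percentiles of 70.7 and 75.3, then 78.8 and 64.4. The region over SADHU1-1 had no peak in SWN-GFP replicate 1, a weak one over 249 bp in replicate 2, and peaks over 823 and 723 bp in val1 val2. SADHU4-1 was gained with weak peaks, at percentiles of 8.77 and 19.1.

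Several genes of short structural RNAs made up little of the region that touched them. The strongest snRNA region, over U2.15 at chromosome 5, 25082941 to 25086002, was 3062 bp wide, and the gene made up 6.37% of it and held no summit. It lies beside MYB96, a transcription factor gene of the drought response that was kept. The strongest tRNA region, over AT1G13840 and AT1G13850, was made up of these genes over 6.49%. U4.10 and U1.14p, also snRNA genes, lay in a gained region with percentiles of 71.7 and 41.1, whose summits lay in the lncRNA gene AT1G06867.

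Most of the regions were close to a protein-coding gene, and that gene was often unoccupied. The median distance to the nearest protein-coding gene was 908 bp, with 387 of 721 regions (53.7%) within 1000 bp and 40 more than 5000 bp away. The nearest protein-coding gene had no peak in any list for 375 regions (52.0%), against 71.0% of all protein-coding genes, and was kept for 184 (25.5%, against 12.6%). For the 57 lost regions it had no peak in 37 cases, was kept in 6 and was lost in 4 (7.02%, against 2.70% of all protein-coding genes). For the 106 gained regions it had no peak in 63 cases, was kept in 24 and was gained in 9 (8.49%, against 3.61%). The same call at the nearest protein-coding gene was thus found for few of the lost and gained regions, though for a larger share than among all protein-coding genes. Over all 721 regions, the nearest protein-coding gene was lost for 21 (2.91%) and gained for 44 (6.10%), and for the gained call this share, too, exceeded that of all protein-coding genes. None of these differences was tested.

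The edge of the rule can be read from the regions closest to it. The 37 members within 100 bp of a protein-coding gene included 19 kept (51.4%), no lost and no gained regions, with a median width of 597 bp. The 27 regions that touched a non-coding gene and overlapped protein-coding or microRNA genes by 1 to 100 bp fell outside, with a median width of 833 bp. They included 12 kept (44.4%), 4 lost (14.8%) and 3 gained ones (11.1%). Of all union regions, 31.0% were kept, 8.91% lost and 12.3% gained. Both edge sets are small, and no difference between them was tested.

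Regions over non-coding genes lay in gene-poor stretches more often than union regions in general. A window with 10 or fewer protein-coding genes within 50000 bp on either side held 65 of the 721 (9.02%) against 327 of 13169 (2.48%), and 27 of the 104 over pseudogenes not marked as transcribed (26.0%). Of the 65, 20 were kept, 6 lost and 19 gained (29.2%), while 13.3% of the 656 regions elsewhere were gained. All union regions in such windows had a like share, with 24.8% gained against 11.9% elsewhere. By chromosome, regions over non-coding genes made up 5.27%, 5.75%, 7.61%, 4.49% and 4.38% of the union regions of chromosomes 1 to 5.

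Several non-coding genes carried more than a single region. There were 50 such genes, with up to 4 regions each. AT1G65875, a transcribed pseudogene, had 4 mixed regions. For 13 of the genes the regions were kept and mixed, for 16 all were mixed, and GA2OX5 was the gene on which all regions were lost. For 2 genes a lost and a kept region lay side by side, with a mixed one beside them in AT5G28145.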

How the data were processed

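The authors deposited 1 peak list per immunoprecipitated library, made with Bowtie2, SAMtools, Picard and MACS2 on TAIR10, per the submitters' processing notes; in the sources used here their versions, settings and control libraries are not given. All lists lack a header, and columns were assigned by the usual MACS2 order. The deposited pileup is a signal in fragments, the deposited −log10 p and −log10 q are the caller's, and the fold enrichment is the authors' ratio of pileup to local background. Fold was used to rank or filter peaks within a list.

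Depth is unknown, so no counting interval could be given for peaks. Genes came from the RefSeq table of TAIR10.1, without strand. Its fit was checked by moving summits: in SWN-GFP replicate 1, protein-coding spans held 69.9% of them, and 46.6% and 46.7% after a shift of 1000 bp either way. Peaks were merged and compared with Python 3.11.15, numpy 2.4.6, pandas 2.3.3 and scipy 1.17.1, checked on simulated peaks. Libraries were compared by two-sided exact permutation. No label states separate cultures for replicates, so p-values measure a spread that may be technical.

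The members, lists and rules were chosen with earlier results of these data known. Named were listed regulatory RNAs, the 8 strongest kept and 6 strongest lost and gained regions, the 3 with the lowest and highest ratio of covered length, the strongest of each gene type, and, from those with a symbol, examples. The strongest of a gene type was the region with the highest percentile in any list. GA2OX5, AOP2, EXPA19, CYP71B18, UBC26, GUT15, the SADHU elements and the genes with several regions were picked among their kind after their values were seen.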

Additional observations from a re-analysis of the deposited data

How the results depend on the processing

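The numbers above rest on yes or no calls of a peak caller at unknown depth. The excess of regions in val1 val2, 97.5 as a difference of means, became -3 with peaks restricted to a fold of 4 or more, and kept its direction under the other settings. The covered length kept its direction under every setting. The difference in median peak width, -20.5 bp, became 165.5 bp at a fold of at least 4 and 18.25 bp with lists of equal length. The difference in median percentile, 0.12, was within replicate spread. It became 5.639 at a fold of at least 4 and 5.003 with lists of equal length. In both of these settings the genotypes did not overlap (exact permutation p = 0.333 in each). The difference in median percentile became -0.51 without protein-coding or microRNA genes within 1000 bp. It was -0.10 where non-coding genes had to cover at least 50% of the region. With single libraries left out it ranged from -1.24 to 2.59 (-1.24 without SWN-GFP replicate 2, -0.10 without val1 val2 replicate 1). The cause was not tested.

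Most counts fell where the settings admit fewer peaks or regions by construction. At a fold of at least 4 there were 62 kept, 20 lost, 16 gained and 64 mixed regions, with 6 kept ones covered less and 33 more. In that order the classes made up 38.3%, 12.3%, 9.88% and 39.5%, against 35.2%, 17.0%, 11.0% and 36.8% of all union regions. Of the kept, 9.68% were covered less and 53.2% more, against 21.7% and 38.3%. At a −log10 q of at least 5 there were 137 kept, 35 lost, 66 gained and 189 mixed, with 24 covered less and 62 more. In that order the classes made up 32.08%, 8.197%, 15.46% and 44.26%, against 33.03%, 10.86%, 12.73% and 43.38% of all union regions. Of the kept, 17.52% were covered less and 45.26% more, against 25.76% and 36.88%. With peaks required over at least 50% of a region, 130 were kept, 19 of them covered less and 47 more. The other classes grew to 69 lost, 138 gained and 384 mixed. Kept, lost, gained and mixed regions made up 18.03%, 9.57%, 19.14% and 53.26%, against 19.11%, 11.64%, 15.16% and 54.1% of all union regions. Of the kept, 14.62% were covered less and 36.15% more, against 23.41% and 33.43%. Without protein-coding or microRNA genes within 1000 bp, 101 were kept, 25 lost, 55 gained and 150 mixed, with 18 covered less and 46 more. These classes made up 30.5%, 7.55%, 16.6% and 45.3%, against 31.0%, 8.91%, 12.3% and 47.9% of all union regions. Of the kept, 17.8% were covered less and 45.5% more, against 27.1% and 36.6%. Where non-coding genes had to cover at least 50% of the region, 116 were kept, with 26 covered less and 45 more. The kept ones made up 22.8%, against 31.0% of all union regions. Of them, 22.4% were covered less and 38.8% more, against 27.1% and 36.6%. In those last settings the shares of lncRNA were 35.6% and 36.4%, of transcribed pseudogenes 31.1% in each, of other pseudogenes 22.4% and 17.7%, and in the last the share of miscellaneous RNA was 17.3%. With single libraries left out, kept regions ranged from 228 to 244, lost from 67 to 109, gained from 127 to 213, mixed from 157 to 228, those covered less from 63 to 75 and those covered more from 114 to 135. Kept regions then made up 34.5% to 35.3%, against 35.2% to 36.5% of all union regions. Lost ones made up 9.97% to 15.5%, against 11.4% to 18.7%, and gained ones 18.1% to 31.7%, against 15.1% to 27.3%. Of the kept, 25.82% to 32.89% were covered less, against 32.28% to 38.98%, and 50% to 55.33% more, against 41.97% to 49.46%.

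Replicate numbers do not pair the libraries by any label. A replicate block over same-numbered libraries left the differences at 97.5 regions, 62.1 kb, 0.12 percentiles and -20.5 bp, with exact sign-flip p of 0.5, 0.5, 1 and 0.5, where 0.5 is the smallest possible. The replicate deviations of covered length correlated at -0.00029 over all kept regions.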
